A study of Mus musculus with 18 samples.

Results

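Aldehyde, alcohol and xenobiotic metabolism enzymes were examined as 1 module across every cluster of adult mouse stomach cells. Members were chosen by name and abundance: all gene symbols starting with Aldh, Gst or Akr1, with Adh or Cyp and a digit, or with Ugt1a, that were not marked as -ps pseudogenes and reached at least 50 unique molecular identifiers (UMIs, 1 per captured transcript) over all kept cells. Of 31201 gene names, 148 matched and 93 passed, while 55 stayed below the minimum. The members were 19 of 21 Aldh names, all 5 Adh names, 23 of 24 Gst names, 36 of 80 Cyp names and 10 of 13 Akr1 names. None of the 5 Ugt1a names passed, and the highest of them held 48 UMIs. Sequence shared between genes was examined for members only, so these counts do not measure the level of the Ugt1a family. The summed count chose the members, so it is a description and carries no test. Just outside the minimum lay Ugt1a7c with 48 and Cyp2d10 with 44 UMIs, and just inside it lay Cyp4f18 with 58, Adh4 with 62 and Cyp1b1 with 70 UMIs. Members held 2158200 of 159518131 UMIs, which is 1.35%.

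All cells came from wild-type (WT) male C57BL/6J mice aged 10 weeks, profiled by Quartz-Seq2, a plate-based single-cell RNA-seq method that captures polyadenylated RNA. Dataset 1 sampled corpus and antrum gastric units together in pools tube1 and tube2, sorted as ToPro3-negative cells per the labels, although the methods name propidium iodide. Dataset 2 sampled corpus gastric units in pools K and T, sorted as Hoechst33342-positive and ToPro3-negative cells. Each pool came from 3 mice, and each of the pools of a dataset was prepared by a different operator, so mice and operator cannot be told apart.

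Dataset 1 held 491 kept cells in 15 clusters with a median of 38757 UMIs per cell, and dataset 2 held 3993 kept cells in 20 clusters with a median of 31020. Plates of dataset 1 held 3054370 to 5346035 UMIs and plates of dataset 2 held 10540256 to 12850942. Cluster numbers were those of the deposited annotation, and UMIs were summed per cell type and pool. In dataset 2 the types were isthmus (the proliferating zone), pre-pit, mature pit, neck, chief and parietal cells. Because the authors built the clusters from the same counts, a p-value between types describes the distance between clusters relative to the spread of pools. Some clusters were led by genes that go against their type. Dataset 1 cluster 6, used as antrum pre-pit, was led by the goblet genes Zg16, Tff3 and Muc2. Dataset 2 cluster 11, used as isthmus, was led by Cym, Chil4 and Krt5, and cluster 12, used as neck, had the chief genes Cblif and Gper1 among its leaders and scored best for chief markers. Isthmus clusters 3 and 9 scored best for neck and pit markers, with isthmus markers next in both, and were led by replication and mitosis genes. Comparisons of cell types that rest on clusters 6, 11 and 12, and the split of isthmus cells by mucin, are given with and without them.

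These enzymes handle reactive small molecules. Cytochromes P450 (Cyp) oxidise lipids, sterols and foreign compounds, and alcohol dehydrogenases (Adh) convert alcohols to aldehydes. Aldehyde dehydrogenases (Aldh) oxidise aldehydes to acids, including retinal to retinoic acid, and aldo-keto reductases (Akr1) reduce carbonyls. Glutathione S-transferases (Gst) join glutathione to electrophiles. Surface pit cells face ingested ethanol and food-derived compounds, and the gastric alcohol dehydrogenase is Adh7. The name rule also took in Gstcd, a protein with a Gst-like C-terminal domain, and Cyp51, an enzyme of cholesterol synthesis.

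Promoters of Aldh3a1, Gsta1 and Adh7, high in pit cells, and of Cyp2u1, high in parietal cells, are shown because their genes mark the contrasts described next. That of Cyp1a1, the classic target of the aryl hydrocarbon receptor, is shown as a reference for the motif. Cyp1a1 itself held 91 UMIs in dataset 1 and 1 in dataset 2. Each is the 250 bases before the canonical transcript start, 5′ to 3′ on the gene's strand, in GRCm39 with GENCODE M39 starts. Capitals mark GCGTG on either strand, the core of the xenobiotic response element. The windows are chr11:61099134-61099383 (plus strand) for Aldh3a1, chr9:78137677-78137926 (plus) for Gsta1, chr3:137923271-137923520 (plus) for Adh7, chr3:131096874-131097123 (minus) for Cyp2u1 and chr9:57603892-57604141 (plus) for Cyp1a1.
Aldh3a1: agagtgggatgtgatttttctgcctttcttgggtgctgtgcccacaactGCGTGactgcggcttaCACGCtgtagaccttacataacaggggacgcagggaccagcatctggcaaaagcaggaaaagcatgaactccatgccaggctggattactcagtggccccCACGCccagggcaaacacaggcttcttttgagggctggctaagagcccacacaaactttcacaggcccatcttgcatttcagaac
Gsta1: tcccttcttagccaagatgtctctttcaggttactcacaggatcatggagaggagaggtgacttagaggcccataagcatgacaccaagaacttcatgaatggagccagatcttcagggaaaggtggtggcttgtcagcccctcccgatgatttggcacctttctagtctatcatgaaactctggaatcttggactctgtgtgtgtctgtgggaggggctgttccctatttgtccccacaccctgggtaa
Adh7: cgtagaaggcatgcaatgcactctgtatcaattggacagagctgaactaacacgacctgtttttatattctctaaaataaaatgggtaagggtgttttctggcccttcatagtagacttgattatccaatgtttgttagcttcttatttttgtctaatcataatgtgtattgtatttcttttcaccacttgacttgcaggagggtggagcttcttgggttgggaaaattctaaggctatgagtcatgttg
Cyp2u1: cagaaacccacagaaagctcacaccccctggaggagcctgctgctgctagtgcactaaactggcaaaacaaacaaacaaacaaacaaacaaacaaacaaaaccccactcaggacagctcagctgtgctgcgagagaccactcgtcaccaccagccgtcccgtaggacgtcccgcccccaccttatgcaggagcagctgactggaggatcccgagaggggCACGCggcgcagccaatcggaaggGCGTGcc
Cyp1a1: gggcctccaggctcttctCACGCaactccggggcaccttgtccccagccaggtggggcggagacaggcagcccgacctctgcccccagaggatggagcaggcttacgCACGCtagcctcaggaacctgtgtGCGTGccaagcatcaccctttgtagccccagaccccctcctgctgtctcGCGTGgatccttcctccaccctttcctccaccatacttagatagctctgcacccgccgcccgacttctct
The core occurred 3 times in the Aldh3a1 window, 4 times in Cyp1a1 and 2 times in Cyp2u1, and not in Gsta1 or Adh7. It occurred in 19 of the 92 members with a promoter (20.65%), against 31.4% of 21584 promoters. TGACNNNGC, a short form of the antioxidant response element, occurred in 6 of 92 members (6.52%), against 9.75% of all promoters. Promoters were found for 92 of the 93 members, and not for Akr1b3. A match is a description of letters and not a binding site.

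In dataset 2, 73 of the 93 members passed the filter on low counts and were tested, and 20 were not. Levels are CPM, in which the UMIs of each sum are set to a common total of 1e6 with TMM factors; UMIs were counted at transcript 3′ ends, so they are not divided by transcript length. Gsto1, an omega-class transferase, was the most abundant member in mature pit, pre-pit, isthmus and neck cells. It stood at 8971 ± 1098 CPM (SD, n = 2 pools) in mature pit cells, 5677 ± 499.6 in pre-pit, 3451 ± 27.8 in isthmus and 2088 ± 44.4 in neck cells. Gsta4, which conjugates lipid peroxidation aldehydes, followed in all 4 with 4721 and 5272 CPM in the mature pit pools K and T. The third was Gsta1 in both pit stages (4207 ± 390.7 CPM in mature pit), Gstm1 in isthmus (1088 ± 7.02 CPM) and Akr1a1 in neck cells (508 ± 6.18 CPM). Chief cells were led instead by Aldh6a1, the methylmalonate semialdehyde dehydrogenase of valine breakdown, at 494 ± 3.83 CPM. Gstm2 (415 ± 0.685 CPM) and Akr1a1 followed there. In parietal cells Aldh6a1 (1115 ± 30.4 CPM), Gsto1 (1074 ± 121) and Akr1a1 (1051 ± 57.3) lay close together. Gsto1 stood above Aldh6a1 in parietal pool T, at 1160 against 1093 CPM. In the dataset 1 parietal pools Akr1a1 (1081 and 1210 CPM) stood above Aldh6a1 (1076 and 1062). Over all kept cells of both datasets, the families were led by Gsto1 (544372 UMIs), Gsta4 (307651) and Gstm1 (141448), by Akr1a1 (108958), Akr1c14 (58688) and Akr1c13 (37483), by Aldh6a1 (59594), Aldh3a1 (52451) and Aldh1a1 (45815), by Cyp2c65 (41477), Cyp2s1 (38797) and Cyp2j6 (18887), and by Adh7 (40981), Adh5 (21864) and Adh1 (14164). This is the value that chose the members, and dataset 2 holds most of the cells. In dataset 1 alone Gsta1 (50945 UMIs) exceeded Gstm1 (23099), Aldh3a1 (13210) exceeded Aldh6a1 (4940), and Cyp3a11 (6557) exceeded Cyp2s1 (5479). The alcohol dehydrogenases split by type. Adh7 was 864.5 and 977 CPM in mature pit and 9.20 and 8.22 in parietal pools, while Adh5, which clears formaldehyde, was 205 and 226 CPM in parietal and 103 and 83.4 in mature pit pools. Akr1c14, a hydroxysteroid dehydrogenase, was 914 and 812 CPM in pre-pit and 36.2 and 27.8 in parietal pools.

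Members differed widely in where they peaked. Of the 73 tested members, 22 were highest in mature pit cells, 21 in parietal, 12 in pre-pit, 12 in chief, 4 in neck and 2 in isthmus cells. The share of all tested genes highest in each type was not computed, so these counts do not set the members apart from other genes. The chief count rests on TMM factors and was not repeated with library totals. Library totals moved the median of all genes by -0.82 (log2) in chief against neck cells. They also changed the sign of 9 called members there, Gstm2 among them. The 4 Gsta genes on chromosome 9 (Gsta4, Gsta1, Gsta5, Gsta2, over 173 kb) were all highest in mature pit cells. By the mean of the pools, the 5 genes Akr1c14, Akr1c13, Akr1c19, Akr1c12 and Akr1e1 on chromosome 13 (560.2 kb) were all highest in pre-pit cells. For Akr1e1 the pools overlapped, with 40.9 and 40.5 CPM in pre-pit against 41.3 and 38.2 in parietal cells. In dataset 1 Akr1e1 was highest in parietal cells, at 42.9 and 41.8 CPM. The 7 Gstm genes on chromosome 3, within 149 kb, peaked in 4 different types, with chief cells only for Gstm2. Genes with shared 3′ ends cannot be fully told apart: 90.2% of the 50-base stretches in the last 500 bases of Gsta1 also occurred in another gene, as did 53.4% in Gsta2, 88.9% in Gstp2 and 75.2% in Gstp1.

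**Figure D1:**
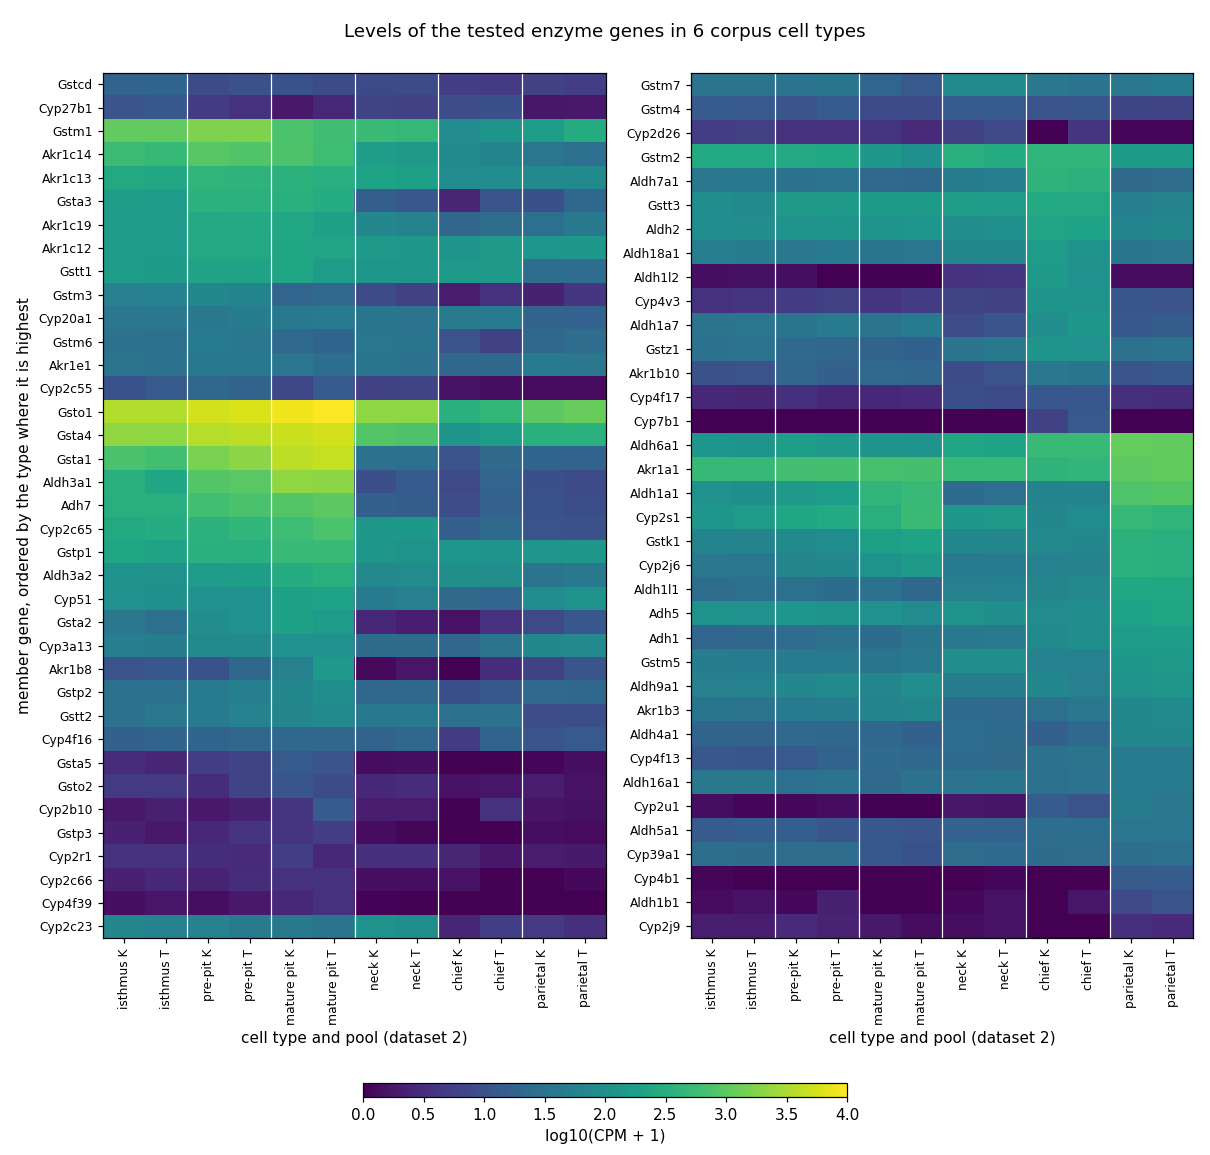
Heat map of 73 tested members (rows) in the 12 sums of 6 cell types and pools K and T of dataset 2 (columns), coloured by log10(CPM + 1). Rows are ordered by the type where each gene is highest, and the columns of pools K and T of a type resemble each other.

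**Figure D2:**
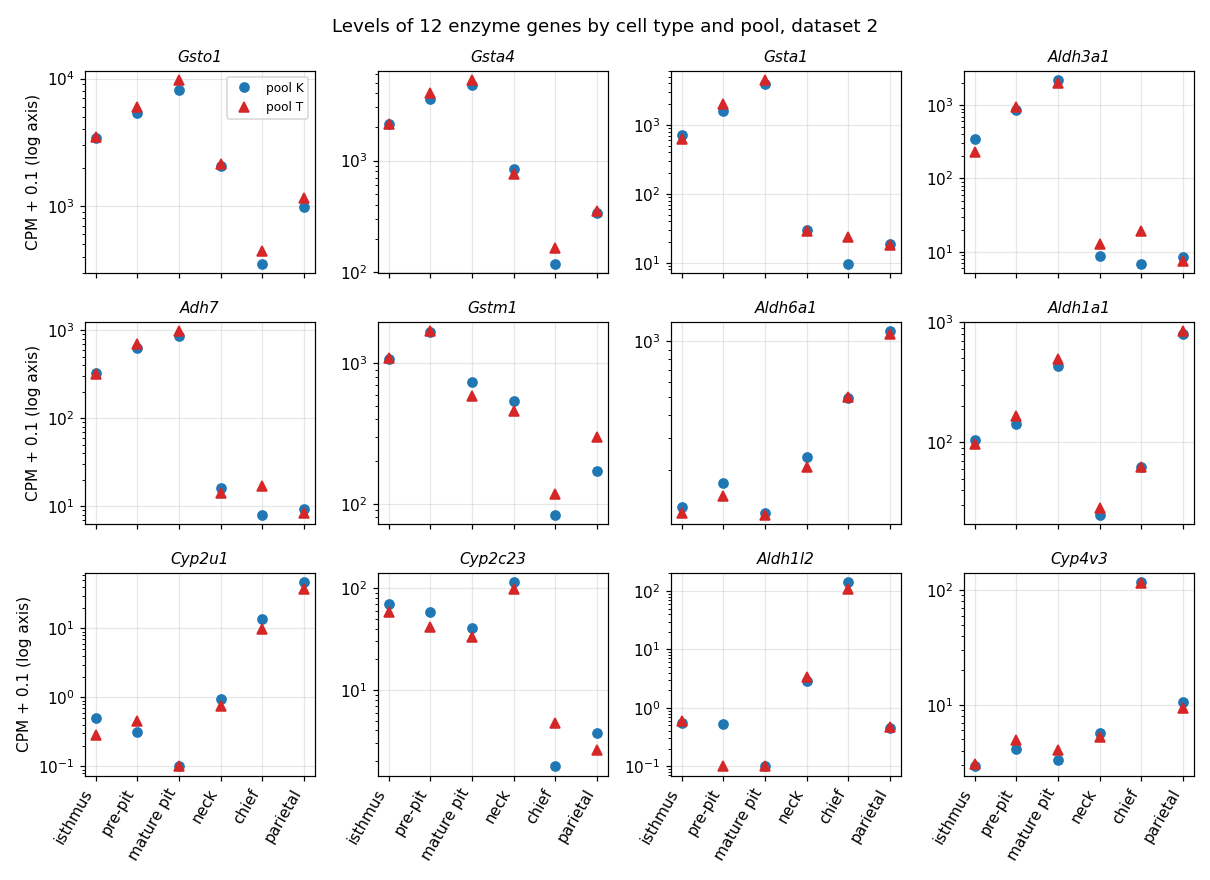
CPM + 0.1 on a log axis for 12 members in 6 cell types of dataset 2, with circles for pool K and triangles for pool T. Aldh3a1, Gsta1 and Adh7 are high in pit and isthmus cells and low in neck, chief and parietal cells.

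The first step of pit differentiation was compared as pre-pit minus isthmus. In dataset 2, 36 members rose and 5 fell, against 12.3% and 15.5% of the 13894 genes tested, and the median log2 fold change was 0.40 for members and 0.00 for all genes. By family 14 of 23 Gst, 7 of 9 Akr1, 6 of 15 Aldh, 7 of 23 Cyp and 2 of 3 Adh members rose. Aldh3a1, which oxidises aromatic and medium-chain aldehydes, was 849 and 942 CPM in the pre-pit pools K and T and 347 and 228 in isthmus. Gsta2 was 94.9 and 105 CPM in pre-pit and 37.4 and 29.4 in isthmus. The pools of the types did not overlap for either gene. Their log2 fold changes were 1.64 (SE 0.21, adjusted p = 6.48e-05) and 1.59 (SE 0.18, adjusted p = 1.84e-05) by edgeR's quasi-likelihood test with Benjamini-Hochberg adjustment, which gave every adjusted p in this report. Gsta1 rose from 708 and 623 CPM to 1575 and 2005, a log2 fold change of 1.43 (SE 0.17, adjusted p = 2.60e-05).

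The members that fell at this step were low in level. Cyp27b1, which activates vitamin D, was 4.01 and 2.68 CPM in pre-pit and 10.4 and 11.4 in isthmus, and fell by 1.73 (log2, SE 0.23, adjusted p = 9.32e-05). Gstcd fell by 1.17 (SE 0.16, adjusted p = 8.84e-05). Gstz1, of tyrosine breakdown, was 21.9 and 19.98 CPM against 30.7 and 32.4 and fell by 0.59 (SE 0.12, adjusted p = 0.00289). Without isthmus cluster 11, all 41 calls were kept. With library totals in place of TMM factors 24 rose and 9 fell. Without pre-pit pool T, 22 members rose. Without isthmus pool K, 3 fell, and likewise without isthmus pool T.

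In dataset 1, 66 members were tested in the corpus pre-pit cells (cluster 2) against isthmus-like cells (cluster 4-15). Of these 27 rose and 5 fell, against 9.60% and 10.8% of 10229 genes, with a median of 0.30. The pools of dataset 1 mixed corpus and antrum and the labels used give no region per cell, so isthmus-like cells may include antrum cells. In each dataset 1 comparison with isthmus-like cells, region and cell type therefore cannot be told apart. Aldh3a1 was 2048 and 1816 CPM in pre-pit pools tube1 and tube2 and 379 and 297 in isthmus-like, the largest rise named here (log2 2.52, SE 0.16, adjusted p = 4.67e-09). Gsta2 (log2 1.91, SE 0.20, adjusted p = 1.46e-06) and Gsta1 (log2 1.68, SE 0.21, adjusted p = 1.62e-05) rose too. Cyp27b1 had 1 and 2 UMIs in pre-pit against 26 and 24, a pooled ratio of 10.6 (95% counting interval 3.42 to 53.1) between isthmus-like and pre-pit. Cyp27b1 passed the low-count filter of dataset 1 only through isthmus-like cells, so it had to differ. Gstm3 fell by 1.75 (SE 0.39, adjusted p = 0.00316), but its log2 change was 0.24 in dataset 2 (not called), and the call was lost without pre-pit tube2 (adjusted p = 0.0646) or without isthmus-like tube1 (log2 change of -0.96, adjusted p = 0.0655). Gstcd fell by 1.15 (SE 0.33, adjusted p = 0.0177). Of 65 members tested in both datasets, 26 were called higher in both, which is 74.3% of 35 calls in dataset 2 and 96.3% of 27 in dataset 1. Of the 5 called lower in each, 2 were shared, Gstcd and Cyp27b1, and the latter had to differ in dataset 1. The share of all genes called in both datasets was not computed, here or in the later comparisons of the datasets. Library totals gave 18 higher and 9 lower, and DESeq2 17 and 1, with Cyp27b1, Gstcd and Gstm3 no longer called. Without pre-pit pool tube1 the counts were 16 and 2, and neither Cyp27b1 nor Gstcd was called.

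Maturation was compared as mature pit minus pre-pit. In dataset 2, 20 members rose and 9 fell, against 6.52% and 3.84% of 13894 genes. The Gst family moved in both directions, with 8 of 23 higher and 5 lower. Aldh1a1, a retinal dehydrogenase, was 432 and 497 CPM in the mature pit pools and 141.7 and 166.4 in pre-pit, a log2 fold change of 1.59 (SE 0.11, adjusted p = 1.28e-06). Akr1b8, which reduces aldehydes, was 54.5 and 142 CPM against 9.28 and 20.7 (log2 2.71, SE 0.44, adjusted p = 0.0015). Gstk1, the mitochondrial and peroxisomal kappa-class transferase, rose by 1.28 on the log2 scale (SE 0.10, adjusted p = 5.58e-06). The pools of both stages did not overlap for these 3 genes, although Akr1b8 differed between pools.

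Of the 7 Gstm members, the mu-class transferases, 5 fell (Gstm1, Gstm2, Gstm3, Gstm6 and Gstm7) and 2 were not called (Gstm4 and Gstm5). Gstm1 was 735 and 591 CPM in mature pit and 1672 and 1700 in pre-pit, and fell by 1.35 (SE 0.21, adjusted p = 0.0011). Gstm3 was 19.5 and 22.1 CPM against 70.4 and 62.3 and fell by 1.66 (SE 0.24, adjusted p = 5.71e-04). Cyp39a1, an oxysterol 7-alpha-hydroxylase, fell by 1.33 (SE 0.16, adjusted p = 1.45e-04). With library totals 16 rose and 13 fell. Without mature pit pool T, 8 members rose and Akr1b8 was no longer called (log2 1.82, adjusted p = 0.056), and without pre-pit pool K 9 rose.

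In dataset 1 corpus pit cells, 16 members rose and 9 fell with maturation, against 7.08% and 5.86% of 10229 genes. Cyp2b10, a drug-metabolising P450, was 28.6 and 27.1 CPM in mature pit and 5.67 and 1.17 in pre-pit (log2 2.80, SE 0.55, adjusted p = 0.00212). Cyp2s1, an epithelial P450, was 915 and 563 CPM against 315 and 281 (log2 1.31, SE 0.19, adjusted p = 2.40e-04). Akr1b8 rose by 1.64 (SE 0.52, adjusted p = 0.0437). Gstm1 was 278 and 510 CPM in mature pit against 1598 and 1466 and fell by 1.96 (SE 0.19, adjusted p = 6.40e-06). Gstm3 fell by 1.95 (SE 0.61, adjusted p = 0.0408), and Aldh7a1 (antiquitin), of lysine breakdown, had 3 and 2 UMIs in mature pit against 25 and 16, a pooled ratio of 5.32 (counting interval 2.10 to 17.2) between pre-pit and mature pit. Of the members tested in both datasets, 14 were called higher in both (70.0% of 20 and 87.5% of 16) and 5 lower in both (55.6% of 9 in each dataset). DESeq2 called 10 higher and 4 lower in dataset 1, and library totals gave 10 and 10. Without corpus mature pit tube1 the counts were 7 and 5, without corpus pre-pit tube1 they were 9 and 5, and without corpus pre-pit tube2 10 rose. DESeq2 and the omission of mature pit tube1 or pre-pit tube1 each left neither Akr1b8 nor Gstm3 called.

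The cells of the isthmus clusters were then split by their mucin, without using any member. Cells above the 95th percentile of parietal cells for Muc5ac only, the pit mucin, numbered 257 in pool K and 323 in pool T, and those above it for Muc6 only, the neck mucin, numbered 185 and 238, of 1285 isthmus cells. The Muc5ac-only cells had more UMIs per cell, with medians of 43301 and 40664 against 33076 and 34566. The groups also differed in cluster make-up. Cluster 3, led by replication genes, gave 65 and 50 of the Muc5ac-only and 70 and 73 of the Muc6-only cells. Cluster 9, led by mitosis genes, gave 51 and 72 against 16 and 26. The part of depth and of cluster make-up in the result was not tested. Of 67 tested members 35 were higher and 11 lower in Muc5ac-only cells, against 17.2% and 15.9% of 12906 genes. The median log2 difference was 0.35 for members and -0.01 for all genes. By family 15 of 23 Gst and 8 of 9 Akr1 members were higher.

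Aldh3a1 was 847 and 566 CPM in the Muc5ac-only sums and 15.2 and 14.6 in the Muc6-only sums, a log2 difference of 5.57 (SE 0.20, adjusted p = 6.11e-07). Gsta1 was 1635 and 1475 CPM against 76.5 and 70.4 (log2 4.41, SE 0.09, adjusted p = 4.31e-08). Gsta2 was 87.2 and 68.8 CPM against 3.67 and 4.00 (log2 4.33, SE 0.17, adjusted p = 8.73e-07). The groups did not overlap for these 3 genes. Lower in Muc5ac-only cells were Cyp2d26 (difference of -1.63, SE 0.22, adjusted p = 7.89e-04), Cyp4f17 (-1.28, SE 0.31, adjusted p = 0.0127) and Gstm7 (-0.72, SE 0.08, adjusted p = 3.43e-04). Without cluster 11 all 46 calls were kept. Library totals gave 29 higher and 16 lower. DESeq2 called 7 lower, as did the fit without the Muc5ac-only sum of pool T, and neither called Cyp4f17.

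**Figure D3:**
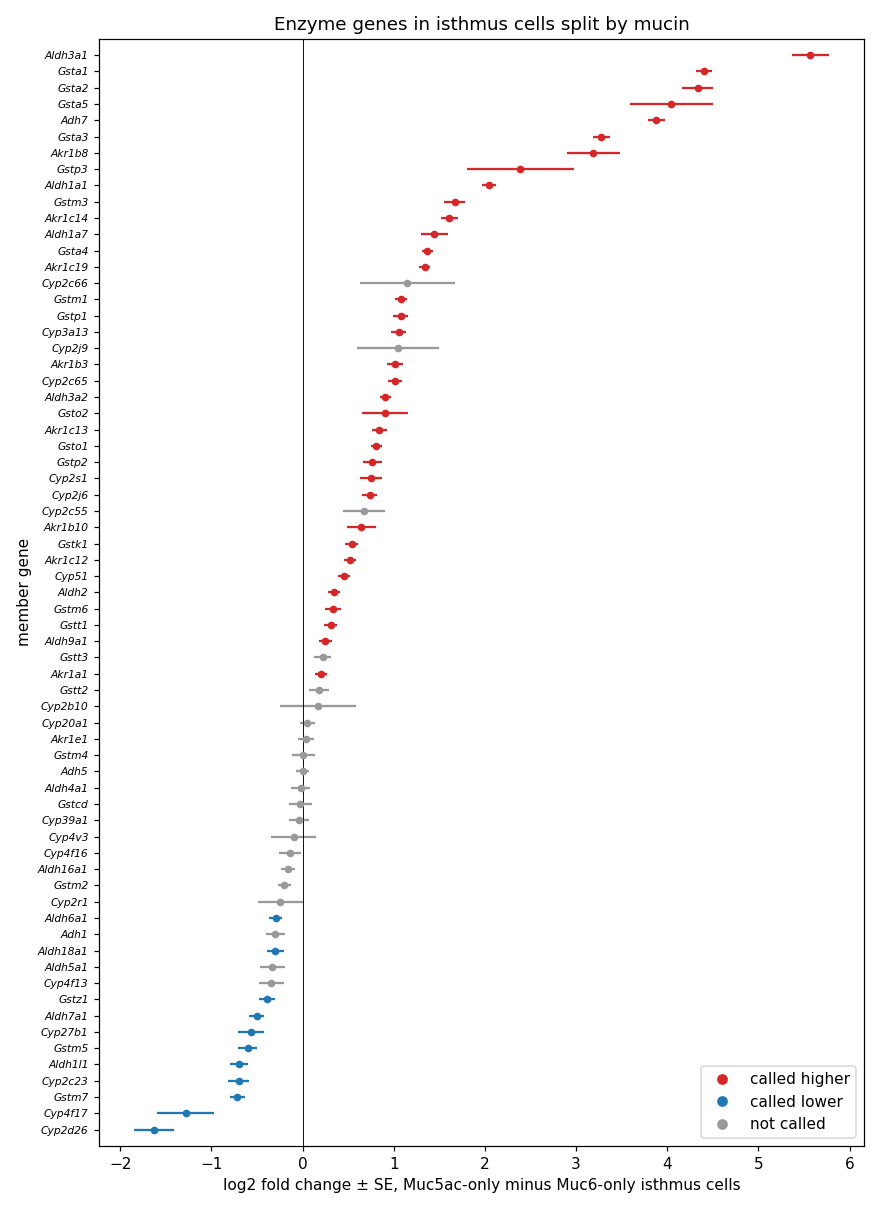
Log2 fold change with its SE (horizontal axis) of 67 members between Muc5ac-only and Muc6-only isthmus cells of dataset 2, coloured by the call at an adjusted p of 0.05. Aldh3a1 stands farthest to the right at 5.57 and Cyp2d26 farthest to the left at -1.63.

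Neck cells were compared with isthmus cells. In dataset 2, 17 members rose and 31 fell, against 26.4% and 24.3% of 13894 genes, and the median was -0.18 for members and 0.06 for all genes. The comparisons of dataset 2 share their isthmus or neck sums, so they are not independent. By family 13 of 23 Gst, 5 of 9 Akr1 and 8 of 23 Cyp members fell, while 7 of 15 Aldh members rose. Aldh3a1 was 8.54 and 12.8 CPM in neck, far under its isthmus pools, and fell by 4.75 (SE 0.26, adjusted p = 5.24e-09). Gsta1 was 29.8 and 28.4 CPM (log2 change of -4.51, SE 0.19, adjusted p = 5.96e-10) and Gsta2 was 1.85 and 1.14 CPM (-4.46, SE 0.27, adjusted p = 1.74e-08). In the neck pools the pit markers Gkn2 and Muc5ac stood at 0.672% and 0.815% and at 1.77% and 1.08% of their mature pit level. Aldh3a1 stood at 0.387% and 0.63%, Gsta1 at 0.759% and 0.633% and Gsta2 at 0.949% and 0.741%, all within or under the range of these markers, and whether free RNA sets these low levels was not tested. Gsto1 in neck cells stood at 25.1% and 21.7%, above that range.

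Aldh1l2, a mitochondrial folate enzyme, was 2.81 and 3.31 CPM in neck and 0.441 and 0.486 in isthmus (log2 2.69, SE 0.31, adjusted p = 1.36e-05). Cyp4f17 was 8.37 and 6.92 CPM against 1.76 and 1.67 (log2 2.15, SE 0.20, adjusted p = 1.04e-06). Cyp2u1, a fatty acid hydroxylase, was 0.842 and 0.662 CPM against 0.407 and 0.189 (log2 1.37, SE 0.43, adjusted p = 0.0189). That call was lost without neck cluster 12 (adjusted p = 0.0712), without neck pool K (adjusted p = 0.124) or without isthmus pool T (adjusted p = 0.159). Without cluster 12, 47 of the 48 calls were kept, and without isthmus cluster 11, also 47.

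In dataset 1, 11 members rose and 24 fell in neck cells, against 13.1% and 16.2% of 10229 genes. Aldh3a1 had 2 and 4 UMIs in the neck sums (2.83 and 3.71 CPM) and fell by 6.61 (SE 0.31, adjusted p = 5.36e-11). Adh7 was 11.3 and 1.85 CPM in neck against 354 and 552 and fell by 6.30 (SE 0.47, adjusted p = 2.12e-08). Gsta5 had no UMI in either neck sum and 11 and 12 in isthmus-like, at least 1.65-fold lower against a floor of 3 UMIs per sum. Aldh1b1, a mitochondrial aldehyde dehydrogenase, was 51.0 and 80.6 CPM in neck against 11.5 and 1.00 (log2 3.53, SE 0.51, adjusted p = 5.06e-05). Its dataset 2 neck pools, from corpus only, held 0.22 and 0.54 CPM. Neck cells of dataset 1 may include antrum cells, so region and dataset cannot be told apart here. Gstm7 (log2 1.46, SE 0.30, adjusted p = 0.00107) and Aldh1l1, a cytosolic folate enzyme (log2 1.44, SE 0.25, adjusted p = 2.57e-04), rose too. Of members tested in both datasets, 10 were called higher in both (71.4% of 14 and 90.9% of 11) and 23 lower in both (82.1% of 28 and 95.8% of 24).

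Chief cells, the zymogen-secreting cells of the gland base, were compared with neck cells in dataset 2. Of the 73 members 22 rose and 22 fell, against 18.6% and 19.9% of 13894 genes. Cyp7b1, at 5.03 and 11.9 CPM in chief and 0 in both neck pools, passed the low-count filter only through chief cells. It therefore had to differ. Of 15 Aldh members 10 were higher and 1 lower, although Aldh1l1, Aldh5a1 and Aldh9a1 of these 10 changed sign with library totals, while 10 of 23 Gst members were lower. Aldh1l2 was 140.3 and 106 CPM in the chief pools against 2.81 and 3.31 in neck (log2 5.32, SE 0.23, adjusted p = 3.88e-09). Cyp4v3, a fatty acid omega-hydroxylase, was 117 and 114 CPM against 5.62 and 5.12 (log2 4.42, SE 0.13, adjusted p = 4.42e-11). Cyp2u1 was 13.4 and 9.63 CPM (log2 3.88, SE 0.36, adjusted p = 3.21e-06). Every chief pool lay above every neck pool for these 3 genes.

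Of the 4 tested Cyp2c members 3 fell between neck and chief, and Cyp2c66 was not called. Cyp2c23, which makes epoxides of arachidonic acid, had 3 and 12 UMIs in chief (1.68 and 4.62 CPM) against 114 and 98.7 CPM in neck, and fell by 4.96 (SE 0.32, adjusted p = 5.57e-08). Cyp2c65, a gastrointestinal P450, was 15.1 and 23.5 CPM against 131 and 133 and fell by 2.73 (SE 0.18, adjusted p = 7.26e-08). Cyp2c55 had 1 UMI in each chief sum and 88 and 92 in neck, a pooled ratio of 11.5 (counting interval 3.13 to 95.4). Counts here depend on the scaling: with library totals 12 members rose and 45 fell, and the median of all genes moved by -0.82 on the log2 scale. Without chief pool T 14 rose, and without neck cluster 12, 43 of the 44 calls were kept (Aldh4a1 was lost). Summed hepatocyte markers stood at 4098 and 2982 CPM in chief and 477 and 472 in neck, with Serpina1a and Apoh at 0 in both chief pools. Summed enterocyte markers stood at 1647 and 1861 CPM in chief, with 4 and 7 of 8 detected, and at 495 and 504 in neck. Ttr made up most of the chief hepatocyte sum and Anpep most of the enterocyte sum. Without TMM factors, they stood at 2333 and 1133 CPM in the chief cluster. In the neck clusters Ttr was 475 to 767 and Anpep 188 to 516. Rbp2 went the other way, at 12.9 in chief against 54.3 to 245 in the neck clusters, as did Apoa1. The part of these markers in the result was not tested.

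Parietal cells, the acid-secreting cells, were compared with isthmus cells. In dataset 2, 24 members rose and 40 fell, against 35.2% and 36.7% of 13894 genes, and the median was -0.59 against -0.05 for all genes. Of the 23 Gst members 19 fell. Cyp2u1 was 46.6 and 37.3 CPM in the parietal pools and 0.407 and 0.189 in isthmus (log2 7.15, SE 0.26, adjusted p = 5.13e-11). Cyp4b1, which oxidises fatty acids and foreign compounds, was 12.9 and 13.8 CPM against 4 and 2 UMIs in isthmus (log2 7.05, SE 0.43, adjusted p = 5.87e-08). Aldh1b1 was 6.76 and 9.53 CPM against 0.305 and 0.54 (log2 4.20, SE 0.41, adjusted p = 8.64e-07). Cyp4b1 and Aldh1b1 passed the low-count filter only through parietal cells, so they had to differ and their p-values carry no weight. Both stay in the count of 24. Adh7, the class of alcohol dehydrogenase active on retinol and ethanol, was 9.20 and 8.22 CPM against 324 and 319 and fell by 5.20 (SE 0.16, adjusted p = 4.88e-12). Gsta1 fell by 5.18 (SE 0.20, adjusted p = 3.60e-11), and Cyp4f39 had no UMI in either parietal sum, at least 2.67-fold lower than in isthmus. Relative to mature pit, Adh7 stood at 1.06% and 0.841% in parietal sums and Gkn2 at 0.844% and 0.681%, while Muc5ac stood at 1.19% and 1.07%. Gsta1 stood at 0.477% and 0.399%, under both markers, and Gsta2 at 3.34% and 7.16%, above both. Whether free RNA sets the low levels was not tested. Summed enterocyte markers were 10530 and 10270 CPM in parietal and 242 and 240.1 in isthmus. Alpi and Sis were at 0 in both parietal pools. Most of the parietal sum was Apoa1, at 10730 and 5736 CPM without TMM factors in parietal clusters 1 and 8. Apoa4 (365 and 170.7) and Fabp1 (45.98 and 25.82) were also higher there than in every isthmus cluster. Rbp2 went the other way, at 3.897 and 4.653 against 107.8 to 172.5 in the isthmus clusters. So did Fabp2, at 0.232 and 0.1551 against 5.61 to 10.7, and Alpi. The part of these markers in the result was not tested. All 64 calls were kept without isthmus cluster 11.

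In dataset 1, 17 members rose and 33 fell in parietal against isthmus-like cells, against 28.3% and 32.0% of 10229 genes. Cyp2u1 had 32 and 93 UMIs in the parietal sums and none in isthmus-like, at least 16.3-fold higher. Cyp4b1 had 18 and 26 UMIs against 0 and 1, a pooled ratio of 50.1 (counting interval 8.54 to 2024). Cyp2u1 and Cyp4b1 passed the low-count filter of dataset 1 only through parietal cells, so they had to differ. Aldh1l1 was 227 and 209 CPM against 12.1 and 11.5 (log2 4.19, SE 0.17, adjusted p = 8.08e-13). Gsta1 fell by 6.35 (SE 0.30, adjusted p = 3.36e-12) and Aldh3a1 fell by 6.32 (SE 0.27, adjusted p = 9.38e-13). Cyp2d26 had no UMI in parietal sums, at least 4.92-fold lower. Summed enterocyte markers were 8825 and 7725 CPM in parietal and 241.9 and 147.5 in isthmus-like sums. Most of the parietal sum was again Apoa1, at 6943 CPM without TMM factors in the parietal cluster, and Apoa4 followed at 208. Rbp2 and Fabp2 went the other way, at 1.15 and 2.59 against 97.6 and 74.9 in isthmus-like cells, as did Alpi. The part of these markers in the result was not tested. All 17 rises of members tested in both datasets were shared (81.0% of 21 in dataset 2), as were 30 falls (81.1% of 37 and 90.9% of 33). The 17 include Cyp2u1 and Cyp4b1, which had to differ in dataset 1. Cyp3a13 was called in opposite directions, by 0.60 in dataset 2 (adjusted p = 1.14e-04) and -0.48 in dataset 1 (adjusted p = 0.0391).

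**Figure D4:**
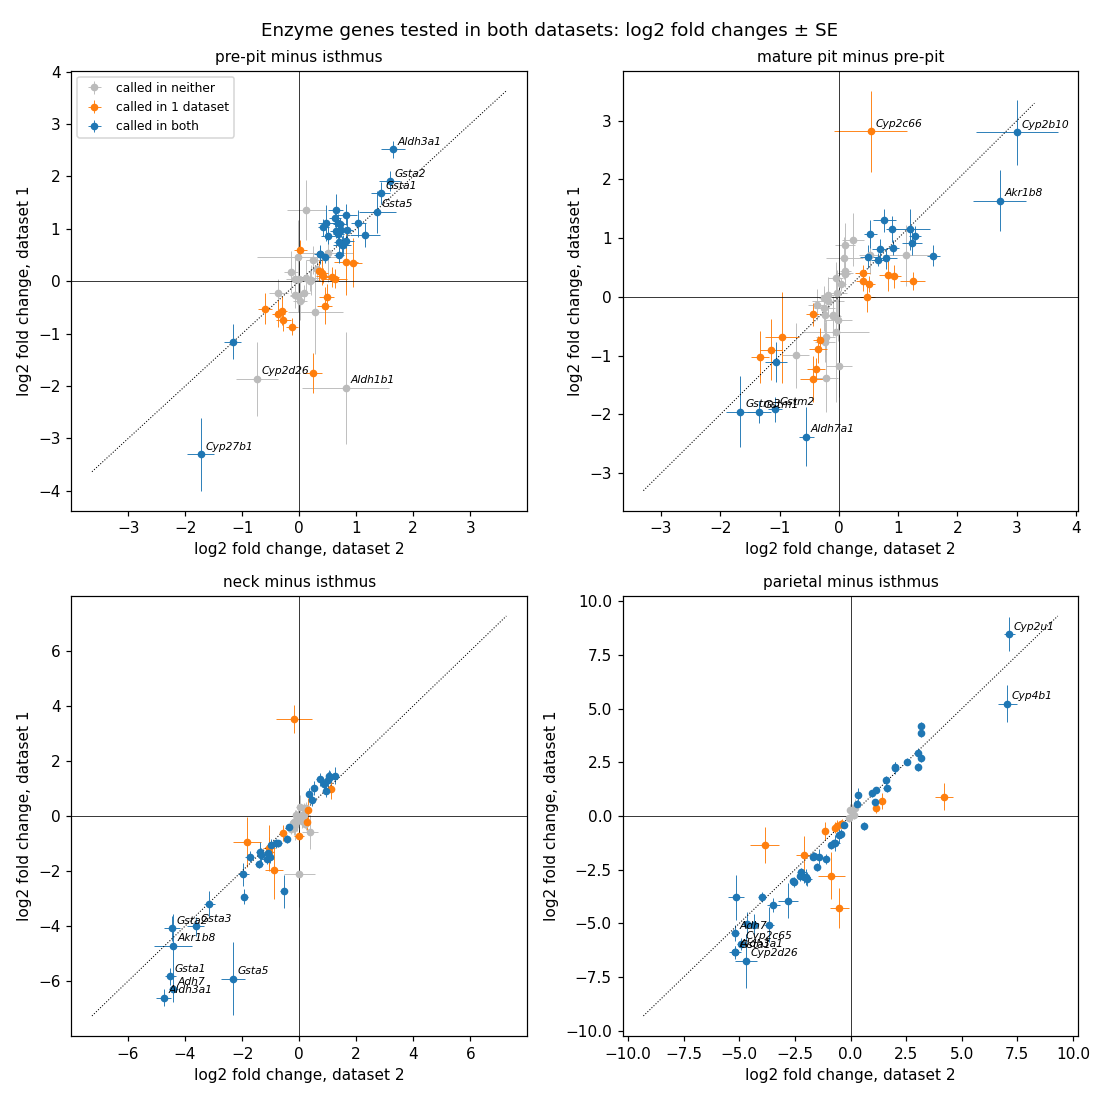
Log2 fold changes with SE of members in dataset 2 (horizontal) and dataset 1 (vertical) for 4 comparisons, over members tested in both with at least 10 UMIs in each comparison, with the diagonal dotted. In neck and parietal comparisons Gsta1, Adh7 and Aldh3a1 lie at the lower left in both datasets.

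Pit cells of antrum and corpus were compared in dataset 1, as the log-scale mean of mature and pre-pit stages. The CPM printed for antrum and corpus are arithmetic means of the mature and pre-pit sums of a pool. The stages could differ widely, as for Gstm3 at 290 and 184 CPM in antrum mature pit and 992 and 777 in antrum pre-pit. In antrum 10 members were higher and 12 lower, against 5.48% and 3.75% of 10229 genes. Gstm3 was 641 and 480.4 CPM in antrum and 57.2 and 39.5 in corpus (log2 3.51, SE 0.32, adjusted p = 7.46e-07). Aldh3b2 was 27.6 and 25.9 CPM against 3.25 and 0.712 (log2 4.78, SE 0.81, adjusted p = 9.11e-04), and Cyp2d26 was 22.75 and 10.54 CPM against 2.01 and 3.63 (log2 2.72, SE 0.57, adjusted p = 0.00411). Aldh3b2 passed the low-count filter only through antrum pit cells, so it had to differ and its p-value carries no weight. Lower in antrum were Akr1c19, at 52.4 and 58.8 CPM against 231 and 176 (difference of -1.99, SE 0.19, adjusted p = 1.22e-06), Gsta2 (-1.52, SE 0.15, adjusted p = 1.24e-06) and Aldh3a1 (-1.44, SE 0.11, adjusted p = 8.59e-08). With mature pit clusters alone, without the goblet-led cluster 6, 6 members were higher and 5 lower and Cyp2d26 was not called (adjusted p = 0.105). Without antrum pre-pit tube1 6 were higher, and neither Aldh3b2 (adjusted p = 0.0555) nor Cyp2d26 (adjusted p = 0.133) was called. Summed enterocyte markers stood at 1366 and 1503 CPM in antrum mature pit, 658 and 836 in antrum pre-pit, 579.5 and 712 in corpus mature pit and lowest in corpus pre-pit, where pool tube2 stood at 325, with 6 to 8 of the 8 markers detected. Their part in the result was not tested. Maturation itself was called different between antrum and corpus for 1 member, Aldh3a1, against 0.0293% of 10229 genes in either direction (log2 difference of 1.36, SE 0.22, adjusted p = 0.0229). Cluster 6 is the whole of antrum pre-pit, so this difference has no value without it.

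Several members were highest outside the 6 types. Levels here are unscaled CPM, taken over each cluster's own summed UMIs without TMM factors. The enterocyte-like dataset 1 cluster 5-7 (18 cells in tube1 and 52 in tube2, led by S100g, Prap1 and Apoa4) was highest for 34 members. Cyp3a11, a drug-metabolising P450, stood there at 3946 and 4205 unscaled CPM and Cyp2c29 at 3453 and 3032. Some of these members reached the UMI minimum only through this cluster, so their peak there was set by the choice of members. Cyp3a11 had 1690 and 4837 UMIs there, of 6557 in dataset 1 and 0 in dataset 2. Aldh1a1, also highest there, held 36867 UMIs in dataset 2 and did not depend on it. The share of all genes highest in this cluster was not computed. In dataset 2 the tuft-like cluster 15 (led by Rgs13 and Lrmp) held Adh1 at 3388 and 4230 unscaled CPM, and Adh1 was also highest in dataset 1 cluster 14 at 4999 and 2765, a cluster that also held mast cell genes such as Mcpt1. Cluster 15 also held stromal genes, with Acta2 at 524 and Col3a1 at 436 unscaled CPM, so neither cluster is tuft cells alone. Aldh2, which clears acetaldehyde, was highest in the same clusters (628 and 684 in dataset 2, 509 and 768 in dataset 1). The histamine-producing ECL-like cluster 14 of dataset 2 held Gstm6 at 623 and 696, and the next cluster averaged 48.8. In dataset 1 cluster 9, led by Chga and Ghrl, Gstm6 was 0 in tube1 and 622 in tube2, with cluster 5-7 next at 303. Small clusters held the rest, with Cyp4f18 at 117 and 216 in the leukocyte-like cluster 18 (8 and 5 cells, 9 and 13 UMIs) and Cyp2c68 at 97.9 and 103 in the X/A-like cluster (led by Ghrl). Stromal-like dataset 1 cluster 12 had Aldh1a3 at 73.7 and 352 and Aldh1a2, both retinal dehydrogenases, at 177 and 179.7, and cluster 11, led by Tagln and Myh11, had Cyp1b1 at 270 and 267. Cyp4f18, Aldh1a3, Aldh1a2 and Cyp1b1, with 58, 93, 74 and 70 UMIs in all, likewise reached the minimum only with these clusters.

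**Figure D5:**
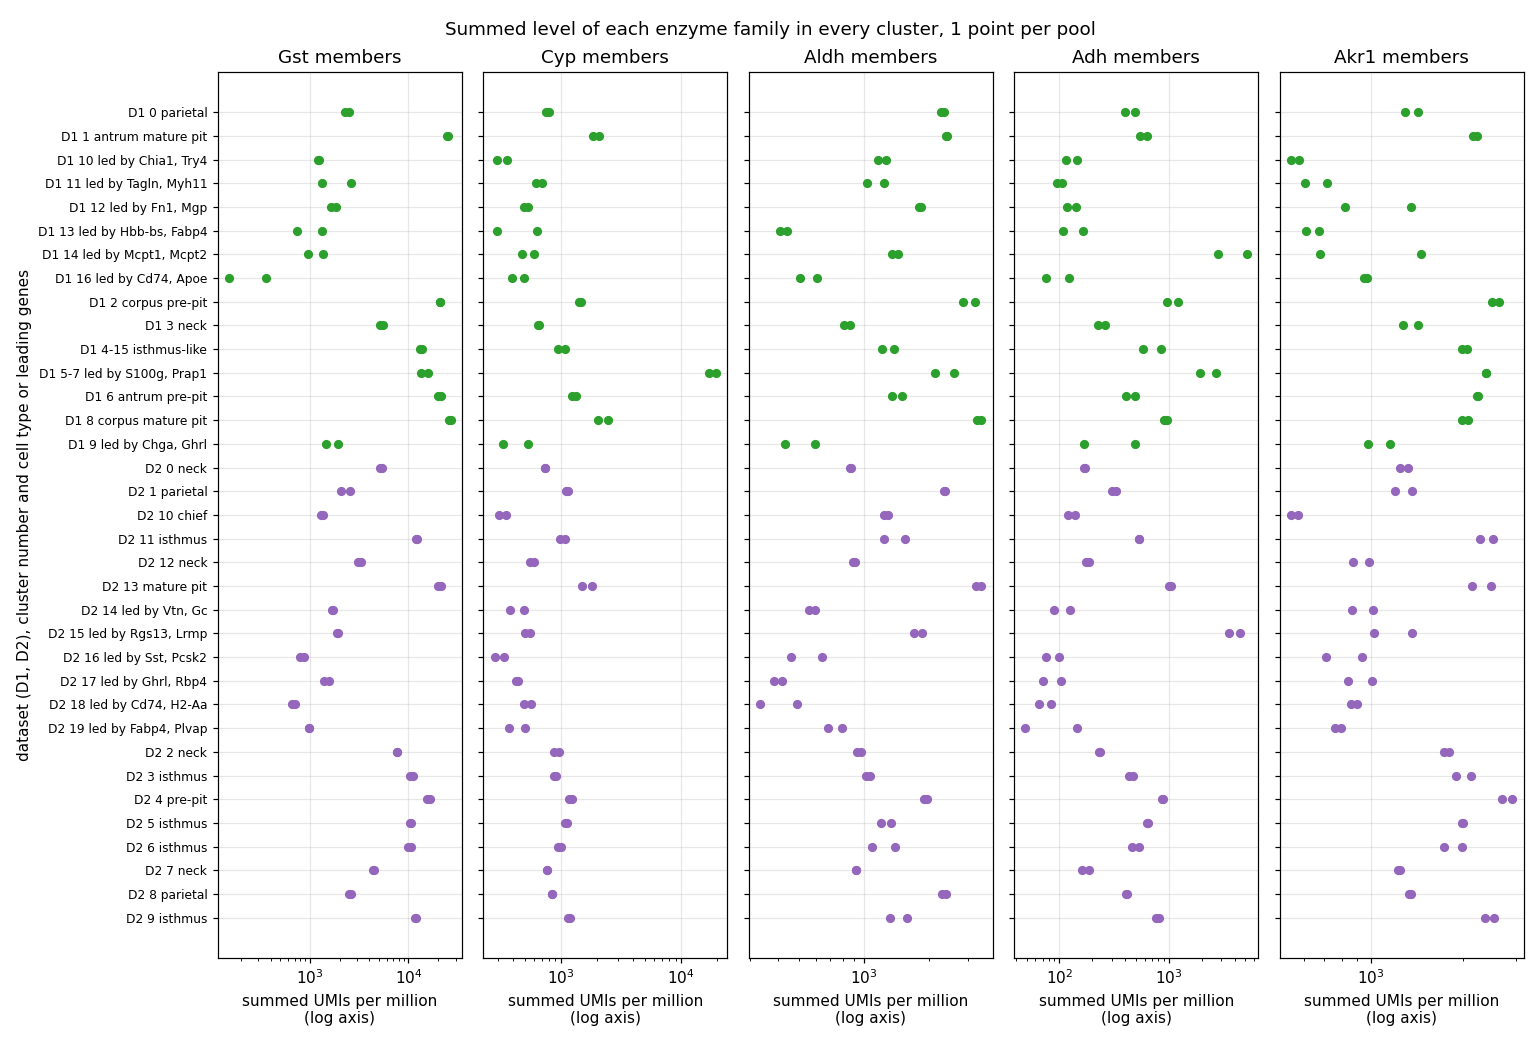
Summed unscaled CPM (log axes) of the Gst, Cyp, Aldh, Adh and Akr1 members in every cluster, 1 point per pool, green for dataset 1 and purple for dataset 2. Cyp members stand highest in dataset 1 cluster 5-7 and Adh members in dataset 2 cluster 15 and dataset 1 cluster 14. Some Cyp members reached the UMI minimum only through cluster 5-7.

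The genes around the members were described by fixed lists in dataset 2, with the share of all genes called and the median log2 fold change of all genes beside them. Of 14 tested other conjugation enzymes (sulfotransferases, microsomal transferases and others), 10 rose in pre-pit (12.3% of all genes, median 0.51 against 0.00) and 11 fell in neck (24.3%, median -0.58 against 0.06). Sult1a1 went the other way in neck, at 8.71 and 8.55 CPM against 1.36 and 1.49 in isthmus (log2 2.59, SE 0.20, adjusted p = 2.07e-07). In Muc5ac-only cells 12 of the 14 were higher (17.2%, median 0.65 against -0.01). Sult1d1, a sulfotransferase, was 283 and 300.2 CPM in the Muc5ac-only sums against 80.3 and 72.5 (log2 1.94, SE 0.08, adjusted p = 7.91e-07). Of 15 glutathione supply and peroxidase genes 12 fell in neck (24.3%, median -0.77 against 0.06) and 1, Gpx8, an endoplasmic reticulum peroxidase, rose. Slc7a11, the cystine importer, was 4.32 and 4.01 CPM in Muc5ac-only and 0.293 and 1.84 in Muc6-only cells (log2 1.82, SE 0.48, adjusted p = 0.0189).

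Of 16 other phase I enzymes 8 rose in pre-pit (12.3% of all genes, median 0.66 against 0.00) and 7 fell in neck (24.3%, median -0.28 against 0.06). Fmo4 rose in neck on few counts, with 6 and 8 UMIs against 2 and 2 in isthmus (log2 2.57, SE 0.70, adjusted p = 0.0107). Nqo1, a quinone reductase, was 57.8 and 55.1 CPM in neck against 366 and 365 in isthmus and fell by 2.69 (SE 0.21, adjusted p = 1.68e-07). Of the 6 P450 partners 4 rose in pre-pit (12.3%, median 0.30 against 0.00), among them Por, the P450 reductase, at 95.5 and 111 CPM against 63.7 and 66.9 (log2 0.66, SE 0.10, adjusted p = 2.46e-04). Of 13 receptors and regulators of the xenobiotic response, 8 fell in neck (24.3%, median -0.35 against 0.06). Bach1 rose there, at 44.2 and 48.8 CPM against 23.2 and 23.4 (log2 1.00, SE 0.11, adjusted p = 7.37e-06). In parietal cells 6 of the 13 fell, against 36.7% of all genes (median -0.17 against -0.05). Hnf4a was 17.4 and 14.8 CPM in parietal against 108 and 107 in isthmus and fell by 2.73 (SE 0.10, adjusted p = 2.55e-11), while Ppara, a fatty acid receptor, was 3.32 and 3.20 against 0.237 and 0.405 (log2 3.28, SE 0.43, adjusted p = 1.43e-05).

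In chief cells, 7 of 11 retinoid genes and 11 of the 14 conjugation enzymes fell (19.9% of all genes, medians -0.98 and -0.95 against -0.07). With library totals, 9088 of 13894 genes were called lower there, so counts in chief cells depend on the scaling. Of 5 efflux transporters 3 rose in pre-pit (12.3%, median 0.28 against 0.00). Abcg2 fell there by 1.35 (SE 0.31, adjusted p = 0.00522). Of 15 sterol synthesis genes 11 rose with pit maturation in dataset 2 (6.52%, median 0.69 against -0.02), and 0 of 14 were called in dataset 1 in either direction, against 7.08% higher and 5.86% lower of all genes by edgeR's test.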

How the data were processed

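Members, lists and comparisons were chosen with earlier results of these data known. The authors deposited raw UMI counts per gene and well, made with Drop-seq tools, FASTX-Toolkit, STAR and the GRCm39 build, and the submitters' processing notes also name bcl2fastq 2.20.0.422. The deposited annotation gave cluster, total count, detected genes and percent of mitochondrial UMIs, from cells with at least 2500 detected genes. Counts of the kept cells matched the annotation in all 491 and 3993 cells. Cells of a type were summed per pool, and edgeR 4.0.16 (TMM, filterByExpr, glmQLFit, glmQLFTest) was fitted to 12 sums of dataset 2, 14 of dataset 1 and 4 of the mucin split, with Benjamini-Hochberg adjustment over all genes tested (threshold 0.05). A member that passed the filter only through the type where it is high had to differ. Intervals cover counting error only. Fits were tested on simulated data. Alternatives were RLE scaling, library totals, DESeq2 1.42.0, no filter, a pool block, 4000 detected genes per cell, no mitochondrial genes, the 99th percentile and leaving out each sum. Sums of 1 pool share their mice across types, and same-pool deviations correlated over 0.1 in 15 of 15 type pairs (1 of 21 in dataset 1). Well barcodes recur by design: 384 of 384 in dataset 2 and 145 of 296 in dataset 1 occurred in more than 1 plate. No doublet caller was run, and whether counting used strand is not given in the sources used here. Members named with values were, per comparison, the 3 largest rises and falls among called members that reached 10 UMIs in each sum of the type where they were higher, the most abundant 3 per family or type, the 2 highest per other cluster, and the extreme called genes per pathway list. Motifs were searched on both strands. Figures and tables used Python 3.11.15 and pandas 2.3.3.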

Additional observations from a re-analysis of the deposited data

Results flagged for a closer look

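The maturation of pit cells differed between antrum and corpus for Aldh3a1, tested as an interaction of region and stage across all genes of dataset 1. Aldh3a1 rose by 1.63 on the log2 scale from pre-pit to mature pit in antrum and by 0.27 in corpus, a difference of 1.36 (SE 0.22, adjusted p = 0.0229 by edgeR's quasi-likelihood test). It was the 1 member among 3 of 10229 genes called (0.0293%), and the antrum pre-pit sums include the goblet-led cluster. Cyp3a13 rose by 0.60 in parietal against isthmus cells of dataset 2 and fell by 0.48 in dataset 1, each past the threshold in its own dataset, and the difference between the datasets was not tested.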

How the results depend on the processing

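No member named with a fold change in a comparison turned direction in it under any alternative. With library totals, 9 members fell in pre-pit of dataset 2 and 9 in dataset 1, 12 rose and 45 fell in chief, and 10 rose in mature pit of dataset 1. With DESeq2, dataset 1 gave 17 higher and 1 lower in pre-pit and 10 higher and 4 lower in mature pit, and the mucin split gave 7 lower. Mature pit clusters alone, an alternative chosen after seeing the data like leaving out clusters 11 and 12, gave 6 higher and 5 lower in antrum. Library totals moved the median of all genes (log2) by -0.21 and -0.14 for pre-pit and mature pit, -0.82 for chief and -0.50 for parietal cells of dataset 2, by -0.25, -0.20 and -0.38 for pre-pit, mature pit and parietal cells of dataset 1, and by -0.17 in the mucin split, and 9 members changed sign in chief (among them Gstm2 and Aldh1l1) and 2 in parietal cells (Akr1e1 and Gstm7). Leaving out each sum gave ranges of 22 to 29 higher and 3 to 4 lower in pre-pit, 8 to 18 and 6 to 8 in mature pit, 14 to 15 and 27 to 29 in neck, 14 to 18 and 16 to 21 in chief and 21 to 22 and 37 to 39 in parietal cells of dataset 2. In dataset 1 they were 16 to 22 and 2 to 5, 7 to 16 and 5 to 7, 8 to 11 and 21 to 23, and 15 to 17 and 29 to 32 for pre-pit, mature pit, neck and parietal cells, 6 to 10 and 10 to 13 for antrum, and 30 to 35 and 7 to 11 for the mucin split. With the pool as a replicate block, every call of the 11 comparisons was kept, and 38 members rose and 6 fell in pre-pit of dataset 2. With a minimum of 25 or 100 UMIs, 100 or 84 genes were members. The cause of these shifts was not tested, apart from the smaller number of sums. Chief and mature pit sums hold the fewest cells of dataset 2.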
